A study of Mus musculus with 6 samples.

Results

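The 9 genes described here are regulators of naive and quiescent T cells: Tcf7, Lef1, Bach2, Satb1, Foxo1, Klf2 and Id3, which encode nuclear factors, and Il7r and S1pr1, which encode surface receptors. They were chosen by name and matched by symbol, and all 9 were found among the 15483 genes listed for every library. The libraries are labelled as regulatory T cells (Tregs, the suppressive CD4 T cells whose identity rests on Foxp3), sorted from mouse bone marrow as CD3+, CD4+, NK1.1-negative and Foxp3+. Their markers go against a pure Treg population: 15 neutrophil markers held 20.7% to 21.2% of the summed FPKM in IR and 15.1% to 15.7% in control libraries, while 7 Treg markers, Foxp3 among them, held 0.0143% to 0.0162% in IR and 0.0251% to 0.0265% in control libraries. There were 3 libraries from wild-type mice 3 months after irradiation (IR) and 3 from wild-type control mice, which the series title places under premature aging. The labels give no radiation dose, sex, age or number of animals per library. Values are FPKM (a transcript level corrected for transcript length and library size), so levels are per length and can be set side by side between genes.

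Naive and resting T cells hold a quiescence programme that keeps them long-lived, mobile and undifferentiated. FOXO1 sits near its top: when growth signals through the kinase AKT are low it stays in the nucleus and switches on genes such as Klf2 and Il7r, and KLF2 in turn drives S1pr1, the receptor by which T cells leave tissues toward the sphingosine 1-phosphate of blood and lymph. TCF-1 (from Tcf7) and LEF-1 bind the same DNA motif through a shared HMG box, BACH2 represses effector genes, SATB1 organises chromatin loops, and ID3 holds E proteins in check. In mouse Tregs several of these genes are lower in activated than in resting cells.

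The promoter sequences of a pair that fell after irradiation, Lef1 and Id3, and of the most abundant regulator, Klf2, are shown to place the genes and because KLF2 belongs to the factors that bind CACCC. Each line gives the 250 bases before an annotated start, 5′ to 3′ on the gene's strand, from RefSeq on GRCm38.p6, with CACCC on either strand in capitals. The windows are chr3:131110047-131110296 for Lef1, chr4:136143572-136143821 for Id3 and chr8:72318812-72319061 for Klf2, all on the plus strand. Against the gene starts that GENCODE M21 gives, the whole Id3 window and the last bases of the Klf2 window lie inside the gene. The Lef1 window ends before the GENCODE gene start at 131110471. The first bases after its RefSeq start were in no GENCODE transcript of Lef1, while those of Id3 and Klf2 were found in theirs.
Lef1: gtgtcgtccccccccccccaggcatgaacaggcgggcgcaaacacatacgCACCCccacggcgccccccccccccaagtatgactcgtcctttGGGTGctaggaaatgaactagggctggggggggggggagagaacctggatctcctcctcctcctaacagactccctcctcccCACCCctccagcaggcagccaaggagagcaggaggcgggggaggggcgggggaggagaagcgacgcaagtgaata
Id3: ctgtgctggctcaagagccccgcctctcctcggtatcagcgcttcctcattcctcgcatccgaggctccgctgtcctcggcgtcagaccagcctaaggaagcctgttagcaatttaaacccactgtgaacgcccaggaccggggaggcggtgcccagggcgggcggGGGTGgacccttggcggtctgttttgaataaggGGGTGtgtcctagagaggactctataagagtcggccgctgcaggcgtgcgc
Klf2: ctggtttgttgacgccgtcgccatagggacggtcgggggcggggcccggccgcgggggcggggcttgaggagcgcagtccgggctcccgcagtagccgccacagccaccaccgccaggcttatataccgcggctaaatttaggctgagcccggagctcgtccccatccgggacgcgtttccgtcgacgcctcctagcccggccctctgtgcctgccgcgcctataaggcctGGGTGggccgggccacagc
There were 3 matches in the Lef1 window, 2 in the Id3 window and 1 in the Klf2 window, and none of them overlapped an E box. RefSeq windows were found for 8 of the 9 regulators, 16 windows in all, and CACCC was in 12 of these 16, against 52.0% of all 32851 promoter windows. Windows of 1 gene can overlap, and the 12 belonged to 5 of the 8 genes. The windows of Bach2, Foxo1 and Il7r held no CACCC, and Bach2 and Foxo1 also fell after irradiation. The E protein motif CANNTG was in 9 of the 16 windows and in 66.2% of all windows. The FOXO motif GTAAACA and the TCF/LEF motif ATCAAAG were in 0 of the 16, and in 3.17% and 3.21% of all windows. All motifs were searched on both strands, and a match is a description of the letters.

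As deposited, 5 of the 9 regulators were lower in IR libraries, 0 were higher and 4 did not pass. The 5 were Bach2, Id3, Lef1, Foxo1 and Tcf7, and the 4 were S1pr1, Il7r, Satb1 and Klf2. Over all 10666 genes tested with limma, 10.3% were lower and 6.29% higher in IR libraries at an adjusted p under 0.05. Every count of list genes that fell or rose below is to be read beside these shares. The log2 changes of the 9 ran from -0.87 to 0.07 with a median of -0.42, against a median of -0.02 over all tested genes. In 6 of the 9 all 3 IR values lay below all 3 control values, and this held for 20.1% of all tested genes. In 0 of the 9 did all 3 IR values lie above, against 13.5% of all tested genes. All log2 changes are IR minus control on log2(FPKM + 1), which understates the change of low genes such as Bach2.

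T cell genes as a whole were lower in the same IR libraries. In bulk RNA, fewer T cells, less of this RNA per T cell and more RNA from other cells cannot be told apart. Cd3e, the T cell receptor complex chain used here as a reference, had 23.4, 25.3 and 26.2 FPKM in IR libraries against 36.1, 41.3 and 41.1 FPKM in control libraries, a log2 change of -0.64 ± 0.08 (SE). Of 17 tested T cell markers 13 fell and 0 rose, with a median of -0.63. Foxp3 averaged 12.6 ± 0.795 FPKM in IR and 22.6 ± 1.93 FPKM in control libraries (SD, n = 3 each). Klrb1c, which encodes the NK1.1 antigen selected against in the sort, had 9.52 ± 0.420 FPKM in IR and 17.9 ± 1.36 FPKM in control libraries, and the neutrophil gene S100a8 had 39026 ± 427 FPKM in IR and 25283 ± 1249 FPKM in control libraries. Each regulator is given as deposited and relative to Cd3e. Setting Cd3e equal in all libraries raised the median log2 change of all genes to 0.57, and on that scale 80.4% of 10665 genes were higher in IR libraries and 2.12% lower. Calls relative to Cd3e are to be read against these shares.

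**Figure D1:**
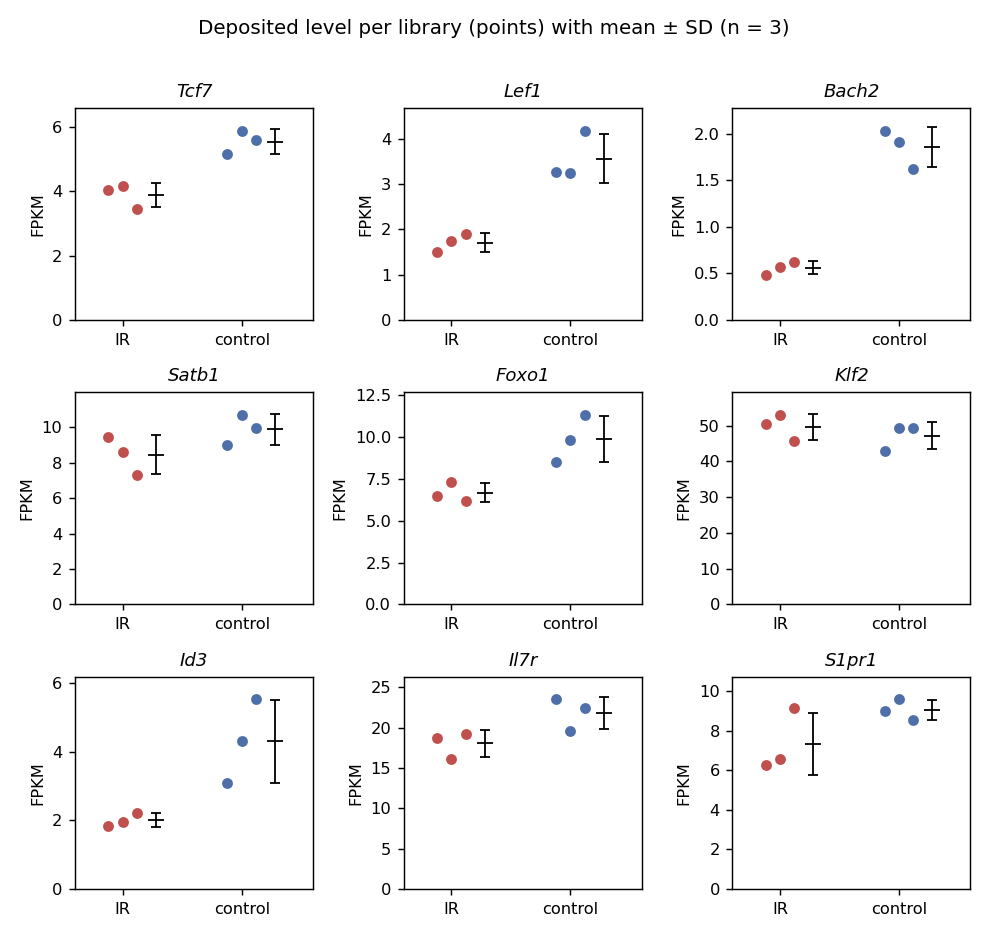
FPKM of each regulator in the 3 IR libraries (left, red) and the 3 control libraries (right, blue), with the mean and SD of each group beside the points and every axis starting at 0. Bach2, Lef1, Id3, Foxo1, Tcf7 and Il7r have all IR points below all control points, while Klf2, Satb1 and S1pr1 overlap.

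In the order of their levels, Klf2 stood first and Il7r second in both groups, and Bach2 stood last. In IR libraries Satb1, S1pr1 and Foxo1 followed Il7r, with ranges that overlapped from each to the next. The same 3 genes followed Il7r in control libraries, in the order Foxo1, Satb1 and S1pr1, again with overlapping ranges. Tcf7, Id3 and Lef1 came next in both groups. Tcf7 and Id3 overlapped in control but not in IR libraries, and Id3 and Lef1 overlapped in both.

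Bach2 (chromosome 4, 32238804 to 32586108, plus strand) had the largest fall of the 9. It had 0.486, 0.571 and 0.628 FPKM in IR libraries against 2.03, 1.91 and 1.62 FPKM in control libraries. The groups did not overlap, and the IR mean was 0.303 of the control mean. As the IR mean of 0.562 FPKM is below the filter of 1 FPKM, Bach2 entered the test only through its control values. The log2 change was -0.87 ± 0.16 (SE) with a limma adjusted p of 0.0028. As a share of Cd3e, Bach2 was at 2.24% ± 0.160 in IR and 4.73% ± 0.847 in control libraries (SD, n = 3 each). Bach2 was the one regulator called lower relative to Cd3e (-0.54 ± 0.19, adjusted p = 0.0140), in a fit where 2.12% of genes were. With a pseudocount of 0.1 in place of 1 the Bach2 change was -1.56 as deposited (adjusted p = 0.00342) and -0.97 relative to Cd3e (adjusted p = 0.0153). With the pseudocount of 1 the Cd3e call did not pass without control replicate 1 (-0.45, adjusted p = 0.0628). In limma fits with no filter Bach2 was called lower as deposited (adjusted p = 0.00331) and relative to Cd3e (adjusted p = 0.00611). Bach2 is transcribed in B cells and their precursors too, and their markers fell in the same libraries: 9 of 10 tested precursor B markers, with a summed level of 24.7 to 28.3 FPKM in IR against 85.9 to 87.6 FPKM in control libraries, and 8 of 9 B cell markers, with 41.9 to 49.9 against 107.0 to 119.8 FPKM. The defining marker Igll1 was listed at 0 in IR replicates 1 and 2 and at 0.325 FPKM in replicate 3, against 7.27 to 7.93 FPKM in control libraries. Igll1 is among the 9 that fell and, like Bach2, entered the test only through its control values. Whether others in these counts did so is not given here. The part of B lineage RNA in the Bach2 values was not tested.

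Lef1 (chromosome 3, 131110471 to 131224356, plus strand) and Tcf7 (chromosome 11, 52252371 to 52283014, minus strand) encode the paired HMG box factors. Lef1 had 1.49, 1.74 and 1.89 FPKM in IR libraries against 3.26, 3.23 and 4.18 FPKM in control libraries, with no overlap. It fell by 0.75 on the log2 scale, with an SE of 0.15 and a limma adjusted p of 0.00537, and the call held in each of 6 fits that left out a library. Tcf7 had 4.03, 4.16 and 3.45 FPKM in IR libraries against 5.14, 5.88 and 5.60 FPKM in control libraries, also with no overlap. Its log2 change was -0.42 ± 0.12 with a limma adjusted p of 0.0398, and it did not pass in any of the 6 fits with 1 library left out (adjusted p up to 0.146). Relative to Cd3e neither passed. Lef1 was at 6.82% ± 0.426 of Cd3e in IR and 8.998% ± 1.17 in control libraries (log2 change -0.28, 95% interval -0.62 to 0.06, adjusted p = 0.119). Tcf7 was at 15.6% ± 2.15 of Cd3e in IR and 14.0% ± 0.347 in control libraries (0.12, interval -0.19 to 0.43, adjusted p = 0.450), so its sign turned with the scale. Precursor B cells transcribe Lef1, and NK and innate lymphoid cells transcribe Tcf7. Of 12 tested NK and innate lymphoid markers 7 fell and 1 rose, with a summed level of 65.7 to 67.96 FPKM in IR and 84.7 to 95.7 FPKM in control libraries, and 0 of the 12 were at 0 in every library. The part of these cells in the values of either gene was not tested.

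Of the partners of TCF-1 and LEF-1, 13 of 17 listed genes were tested, and 1 fell and 0 rose. Over all tested genes 10.3% fell and 6.29% rose. The one that fell was Tle4, a corepressor that docks on TCF factors, at 8.74 ± 0.726 FPKM in IR and 12.7 ± 0.621 FPKM in control libraries (log2 change -0.49 ± 0.10, limma adjusted p = 0.0065). Ctnnb1, which encodes the coactivator beta-catenin, had 89.0 to 90.1 FPKM in IR and 85.2 to 98.1 FPKM in control libraries (log2 change -0.03, adjusted p = 0.751).

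Id3 (chromosome 4, 136143497 to 136145755, plus strand) had 1.84, 1.96 and 2.23 FPKM in IR libraries against 3.09, 4.30 and 5.53 FPKM in control libraries. The groups did not overlap, and the control libraries were spread more widely. The log2 change was -0.80 ± 0.18 with a limma adjusted p of 0.0100, held in each of 6 fits that left out a library. Relative to Cd3e it was -0.30 (95% interval -0.66 to 0.05, adjusted p = 0.101), and it passed without control replicate 1 (-0.42, adjusted p = 0.0444) and was nearer 0 without control replicate 3 (-0.17, adjusted p = 0.449). The part of cells other than T cells in the Id3 values was not tested. Of the other 7 ID and E protein genes, all tested, 1 rose and 1 fell. Lyl1, which encodes a partner of E proteins in blood progenitors, was at 86.3 ± 4.77 FPKM in IR and 71.9 ± 1.47 FPKM in control libraries (log2 change 0.26 ± 0.06, adjusted p = 0.0104). Tcf3, which encodes the E proteins that ID3 binds, was at 33.3 ± 1.62 FPKM in IR and 41.6 ± 2.35 FPKM in control libraries (log2 change -0.31 ± 0.07, adjusted p = 0.0108). Id2, the relative of Id3 that marks effector lymphocytes and many myeloid cells, had 91.9 to 104.97 FPKM in IR and 81.5 to 96.2 FPKM in control libraries (log2 change 0.12, adjusted p = 0.310).

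Foxo1 (chromosome 3, 52268336 to 52353221, plus strand) had 6.50, 7.30 and 6.20 FPKM in IR libraries against 8.54, 9.84 and 11.3 FPKM in control libraries, with no overlap. The log2 change was -0.50 ± 0.12 with a limma adjusted p of 0.0172, and it did not pass without IR replicate 3, control replicate 2 or control replicate 3, which is 3 of the 6 such fits (adjusted p up to 0.0619). Relative to Cd3e Foxo1 had 26.8% ± 2.76 in IR and 24.99% ± 2.21 in control libraries and did not pass (0.09, 95% interval -0.19 to 0.37, adjusted p = 0.548), with its sign turned. The part of cells other than T cells in the Foxo1 values was not tested. Of 18 other genes of the FOXO and AKT axis 2 fell and 0 rose, beside 10.3% and 6.29% of all tested genes. Sesn3, a FOXO target that restrains growth signalling, was at 4.38 ± 1.23 FPKM in IR and 10.1 ± 0.782 FPKM in control libraries (-1.07 ± 0.17, adjusted p = 0.00109), and relative to Cd3e it was called lower too (-0.50 ± 0.18, adjusted p = 0.0145). Foxo4 changed by -0.35 ± 0.10 (adjusted p = 0.0376). Foxo3, at a higher level here than Foxo1 or Foxo4, had 13.8 to 15.3 FPKM in IR and 16.4 to 17.6 FPKM in control libraries (-0.21, adjusted p = 0.123).

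Klf2 (chromosome 8, 72319033 to 72321656, plus strand), a gene that FOXO1 is known to switch on, was the one regulator with a positive log2 change as deposited. It had 50.4, 53.0 and 45.7 FPKM in IR libraries against 43.0, 49.4 and 49.4 FPKM in control libraries, and the groups overlapped. The log2 change was 0.07 with a 95% interval of -0.10 to 0.24 (limma adjusted p = 0.590). Against Cd3e it stood at 215.2%, 209.8% and 174.4% in IR libraries and at 118.9%, 119.5% and 120.1% in control libraries, without overlap. That is a log2 change of 0.72 ± 0.11 (adjusted p = 1.83e-05), in a fit where 80.4% of genes were higher, and 0.15 above the median of all genes. Klf2 is transcribed in many blood cells and in endothelium. The neutrophil markers were higher in the same libraries, 11 of 15 tested, with a summed level of 99724 to 102638 FPKM in IR and 68349 to 73377 FPKM in control libraries. Of 7 endothelial markers 2 passed the filter on low values, and 0 of these were called as deposited. The summed level of the 7 was 28.7 to 33.3 FPKM in IR and 32.0 to 34.1 FPKM in control libraries. The defining marker Cdh5, below the filter and not tested, averaged 0.191 ± 0.254 FPKM in IR and 1.18 ± 0.0277 FPKM in control libraries. The part of these cells in the Klf2 level was not tested.

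Of 10 tested relatives and partners of Bach2, Satb1 and Klf2, 2 rose and 1 fell. Klf7, a KLF2 relative, averaged 9.92 ± 0.611 FPKM in IR and 6.80 ± 0.229 FPKM in control libraries (0.48 ± 0.10, limma adjusted p = 0.00789). Mafg, which encodes a small MAF partner of BACH factors, changed by 0.42 ± 0.10, and Klf4, a KLF2 relative of monocytes, by -0.34 ± 0.09. Bach1 had 17.4 to 18.2 FPKM in IR and 18.6 to 21.0 FPKM in control libraries (-0.16, adjusted p = 0.210).

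Satb1 (chromosome 17, 51736187 to 51833290, minus strand), which FOXP3 is known to repress in mouse Tregs, had 9.47, 8.60 and 7.28 FPKM in IR libraries against 8.99, 10.7 and 9.95 FPKM in control libraries. The groups overlapped, and the log2 change of -0.21 had a 95% interval of -0.47 to 0.05 (limma adjusted p = 0.278), and without IR replicate 3 it was -0.11 (adjusted p = 0.592). Relative to Cd3e it was at 34.1% ± 6.33 in IR and 24.98% ± 0.854 in control libraries. That change of 0.39 ± 0.14 passed (adjusted p = 0.0157) but lay 0.18 below the median of all genes, and without IR replicate 1 it was 0.27 (adjusted p = 0.0914).

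Il7r (chromosome 15, 9505788 to 9530176, minus strand) encodes CD127, the chain that gives the IL-7 receptor its specificity and that most Tregs carry at low levels. It had 18.7, 16.2 and 19.2 FPKM in IR libraries against 23.5, 19.6 and 22.4 FPKM in control libraries. All 3 IR values were below all 3 control values, yet the log2 change of -0.26 ± 0.10 did not pass (limma adjusted p = 0.0918). Relative to Cd3e it was 0.37 ± 0.13 (adjusted p = 0.0144), 0.20 below the median of all genes, with ratios of 72.4% ± 7.99 in IR and 55.6% ± 8.86 in control libraries that overlapped. That call was lost without IR replicate 1 (adjusted p = 0.0571) and without control replicate 2 (0.0965). The part of cells other than T cells in the Il7r values was not tested. Of 13 other genes of the IL-7 axis 3 rose and 1 fell. Il2rg, the common chain that pairs with CD127, fell to 65.02 ± 1.14 FPKM in IR, against 97.6 ± 4.41 FPKM in control libraries (-0.58 ± 0.06, adjusted p = 3.42e-05), and was at 0.08 relative to Cd3e. Jak3, the kinase bound to that chain, changed by 0.31 ± 0.09, the transcriptional repressor gene Gfi1 by 0.45 ± 0.07 and Crlf2, which pairs with CD127 in the receptor for TSLP, by 0.26 ± 0.07. Gfi1 and Jak3 are also transcribed in neutrophils or their precursors. Bcl2, the survival factor that IL-7 maintains, had 8.50 to 10.7 FPKM in IR and 10.4 to 10.7 FPKM in control libraries (-0.10, adjusted p = 0.606).

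S1pr1 (chromosome 3, 115710433 to 115715072, minus strand) had 6.26, 6.60 and 9.15 FPKM in IR libraries against 8.998, 9.60 and 8.57 FPKM in control libraries. IR replicate 3 lay within the control range and the other two IR libraries lay below it. The log2 change of -0.29 had a 95% interval of -0.59 to 0.02 (limma adjusted p = 0.191), and without IR replicate 3 it was -0.44 (adjusted p = 0.0368). Relative to Cd3e it was 0.30 ± 0.14 (adjusted p = 0.0541), and it passed without IR replicate 1 (0.36, adjusted p = 0.0388) and without IR replicate 2 (0.37, adjusted p = 0.0352), and was nearer 0 without IR replicate 3 (0.18, adjusted p = 0.261). Of 14 tested genes of the sphingosine 1-phosphate axis, of 16 listed, 1 rose and 2 fell. S1pr5, a receptor of NK cells and patrolling monocytes, was at 1.15 ± 0.646 FPKM in IR and 3.87 ± 0.917 FPKM in control libraries (-1.20 ± 0.22, adjusted p = 0.00343). Sgpl1, the lyase that degrades sphingosine 1-phosphate, changed by -0.33 ± 0.08 and Arrb2, an arrestin also transcribed in neutrophils, by 0.61 ± 0.05. S1pr4, the related receptor with the highest level of the 5 listed, had 46.7 to 55.6 FPKM in IR and 48.7 to 52.6 FPKM in control libraries (-0.03, adjusted p = 0.849).

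**Figure D2:**
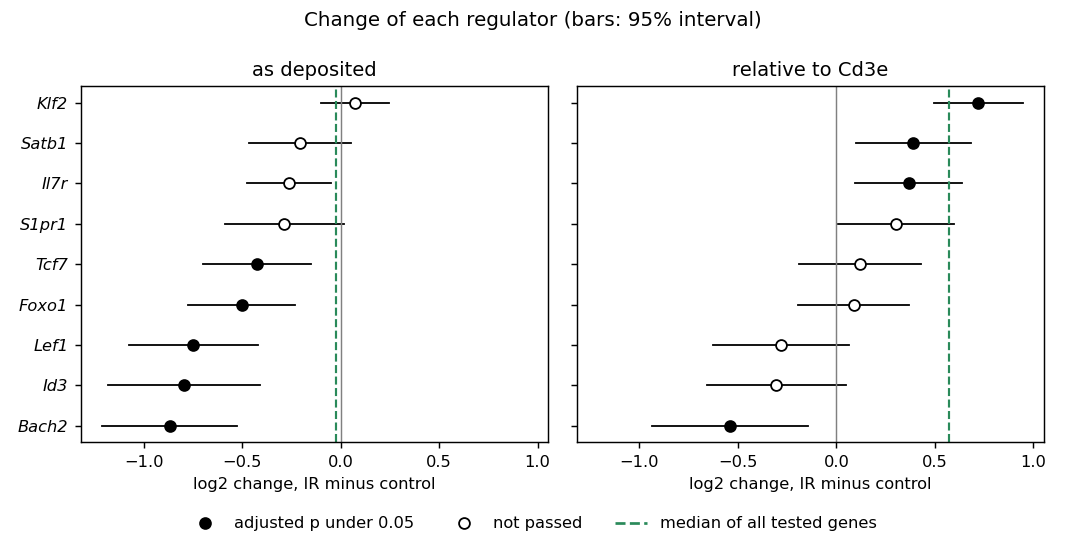
Log2 change (IR minus control, horizontal axis) of each regulator with its 95% interval, as deposited (left) and relative to Cd3e (right). Filled points passed an adjusted p of 0.05, and the dashed line is the median of all tested genes, -0.02 on the left and 0.57 on the right. Klf2 is the one regulator above the dashed line on either side, and Bach2 is lowest on both.

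Relative to Cd3e 3 regulators were called higher (Klf2, Satb1 and Il7r), 1 lower (Bach2), and 5 did not pass. As a share of Cd3e 3 had all IR values above all control values, against 79.2% of all tested genes, and 3 had them all below, against 2.14%. Of the 9, 8 lay below the median of all genes on that scale, by 0.18 for Satb1 to 1.11 for Bach2. As each library was scaled by 1 factor, this place among all genes largely repeats the deposited one. The median change relative to Cd3e was 0.12 for the 9 regulators. It was 0.05 for the tested T cell markers other than Cd3e and 0.04 for the 7 Treg markers, and no test compared these medians. With Cd3e, the 3 CD3 chains, 17 T cell markers, Cd4 or Foxp3 in turn, Klf2 ran from 0.65 to 0.93, Il7r from 0.30 to 0.57, Satb1 from 0.33 to 0.58 and Bach2 from -0.57 to -0.43, each called with 5 of 5 references. Tcf7, Foxo1, Lef1 and Id3 were called with 0 of 5, and S1pr1 with 3 of 5. The references share genes, as the CD3 chains and the 17 markers include Cd3e and the markers include Cd4. With them, 8252 to 9444 of all tested genes (10665 or 10666) were called higher and 164 to 268 lower. The lists around the 9 had mostly higher calls on the Cd3e scale: 16 of 18 FOXO axis genes, 11 of 13 IL-7 axis genes, 11 of 14 sphingosine 1-phosphate genes, 9 of 13 TCF partners, 8 of 10 relatives of Bach2, Satb1 and Klf2, and 6 of 7 ID and E protein genes, beside 80.4% of all genes.

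**Figure D3:**
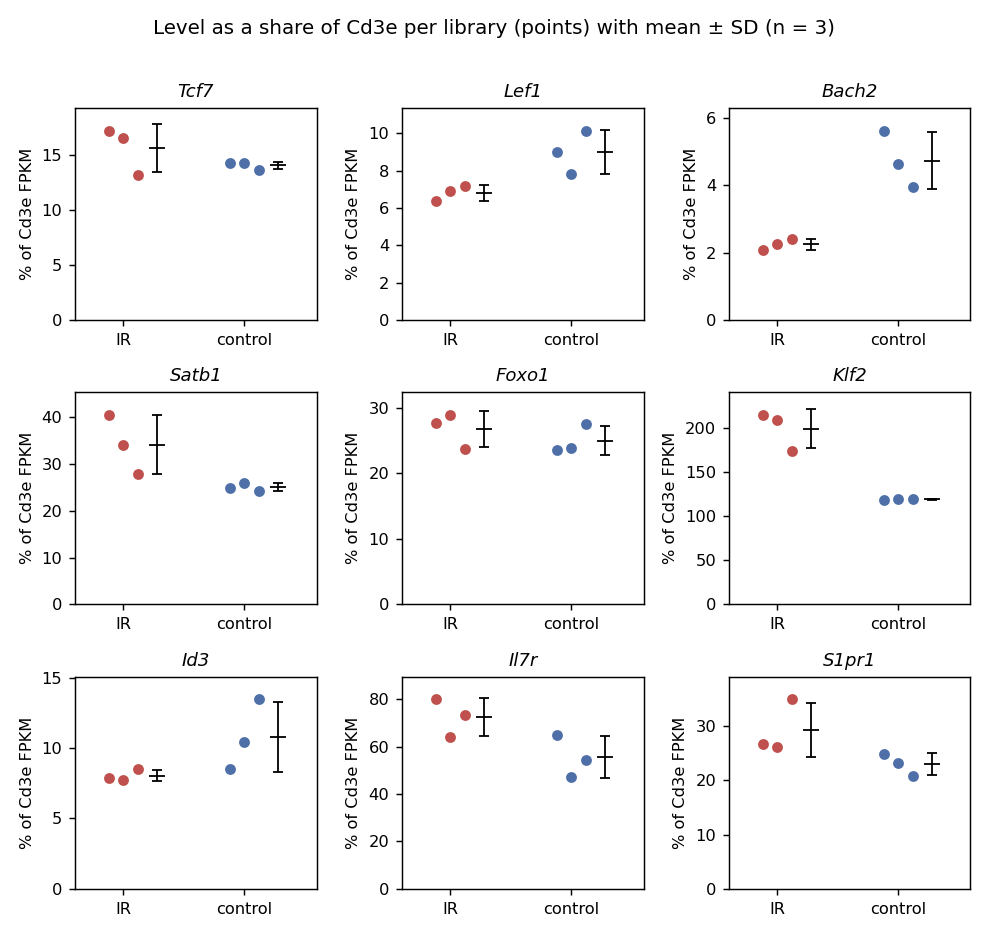
FPKM of each regulator as a percentage of Cd3e FPKM in the same library, for 3 IR (left, red) and 3 control libraries (right, blue), with the mean and SD beside the points and every axis starting at 0. Klf2, Satb1 and S1pr1 have all IR points above all control points, Bach2, Lef1 and Id3 all below, and Tcf7, Foxo1 and Il7r overlap.

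Of 29 tested genes among 30 other genes of naive or resting T cells, 3 rose and 10 fell, with a median log2 change of -0.18. Ms4a6b, a membrane protein gene of T cells, was at 58.3 ± 3.55 FPKM in IR and 93.99 ± 4.06 FPKM in control libraries (-0.68 ± 0.06, limma adjusted p = 2.44e-05). Those that rose were Rflnb, at 103.7 ± 1.84 FPKM in IR and 74.5 ± 3.09 FPKM in control libraries (0.47 ± 0.05, adjusted p = 0.000116), the alpha-actinin gene Actn1 (0.30 ± 0.05) and Klf7, given above. Btg2, which restrains proliferation, changed by -0.51 ± 0.08 and Il6ra, the IL-6 receptor chain, by -0.45 ± 0.07. Ccr7, a lymph node homing receptor gene, had 2.22 to 3.44 FPKM in IR and 2.85 to 4.36 FPKM in control libraries (-0.21, adjusted p = 0.474). Relative to Cd3e 20 of the 29 were higher and 0 lower, against 80.4% and 2.12% of all genes.

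Genes of activated and effector T cells were lower as well. Of 18 tested genes 12 fell and 0 rose, against 10.3% and 6.29% of all tested genes. The median was -0.56, against -0.42 for the 9 regulators and -0.63 for the 17 T cell markers, and no test compared these medians. Of 12 NK and innate lymphoid markers 7 fell and 1 rose, and of 12 macrophage markers 11 fell. The part of these cells in the effector list was not tested. Maf, a factor of effector Tregs and macrophages, averaged 8.998 ± 0.774 FPKM in IR and 19.9 ± 0.540 FPKM in control libraries (-1.07 ± 0.09, limma adjusted p = 1.49e-05). Ccl5, a chemokine gene of effector T and NK cells, changed by -0.70 ± 0.06, Il2rb, the IL-2 and IL-15 receptor chain, by -0.68 ± 0.06 and the chemokine receptor gene Cxcr3 by -0.72 ± 0.07. Prdm1, which BACH2 is known to repress, had 0.878 to 1.45 FPKM in IR and 1.58 to 1.80 FPKM in control libraries (-0.36, adjusted p = 0.159). Relative to Cd3e 5 of the 18 were higher and 4 lower (Gzmb, Gzma, Ifng and Maf), against 80.4% and 2.12% of all genes.

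**Figure D4:**
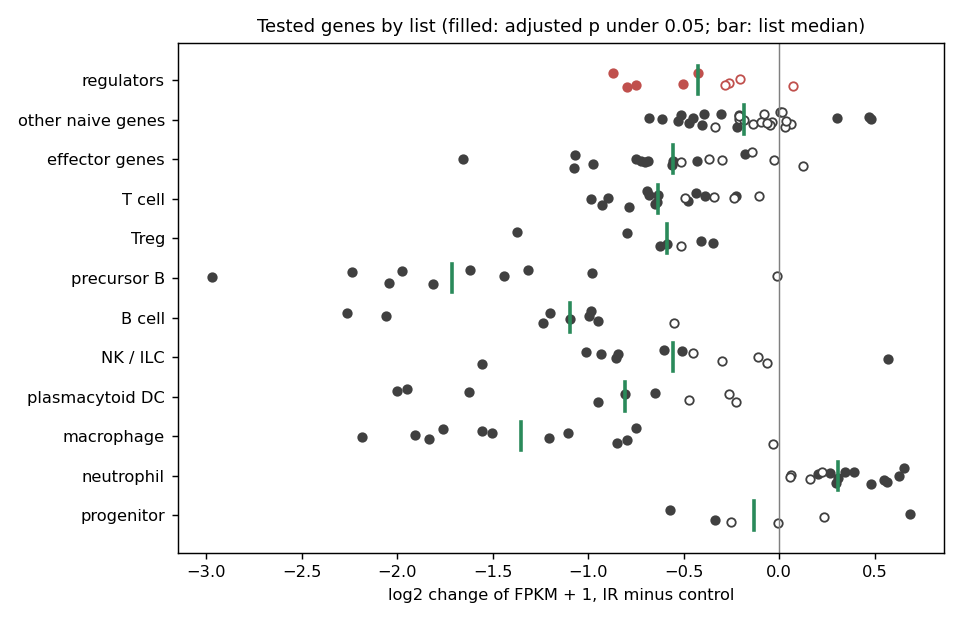
Log2 change (IR minus control, horizontal axis) of the tested genes of each list, with filled points for an adjusted p under 0.05 and a bar at the list's median. The regulators (top, red) run from -0.87 to 0.07, the precursor B markers have a median of -1.71, the macrophage markers -1.35 and the neutrophil markers 0.31. Bach2 and the precursor B marker Igll1 passed the filter of 1 FPKM only through their control values.

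Among all tested genes, those with the pattern over the 6 libraries nearest to Bach2 were Cd2, a T cell adhesion receptor gene, and Igf1, at root mean square differences of 0.04 and 0.05 in centred log2(FPKM + 1). That scale understates the fall of Bach2, which was -1.56 with a pseudocount of 0.1, and nearest genes were not sought at that setting. Nearest to Lef1 were Mndal and Herc6 (0.05 and 0.06), to Id3 Tbc1d9 and Rnf213 (0.09 and 0.11), to Tcf7 Narf and Kdm1b (0.02 each) and to Foxo1 Slc9a7 and Tnfsf12 (0.04 each). For Klf2 they were Scmh1 and Lztr1 (0.03 each), for Il7r Tdp2 and Ptges3 (0.03 each), for S1pr1 Rexo2 and Tbc1d4 (0.04 each) and for Satb1 Polr1a and Pggt1b (0.03 and 0.04). None of these 18 genes was itself one of the 9 regulators.

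Markers of further marrow cell types were read in the same libraries, and their part in the values of the 9 was not tested. Of 9 tested plasmacytoid dendritic cell markers 6 fell, with a summed level of 87.6 to 96.6 FPKM in IR and 155.7 to 160.4 FPKM in control libraries, and of 12 macrophage markers 11 fell, with 413 to 433 against 923 to 949 FPKM. Both CD8 markers were tested and did not pass, with a sum of 9.15 to 9.76 FPKM in IR and 8.35 to 11.2 FPKM in control libraries. Of 6 tested progenitor markers 1 rose and 2 fell, with a sum of 128.8 to 132.4 FPKM in IR and 100.8 to 109.1 FPKM in control libraries. No marker of these lists was listed at 0 in all 6 libraries. Annotated genes on the opposite strand overlap Tcf7, Lef1, Foxo1, Satb1 and Bach2 in GENCODE M21, and other annotated genes overlap the same regulators on their own strand. Whether counting used the strand is not given in the sources used here, so reads from opposite-strand partners cannot be told apart. For same-strand partners the strand would not separate the reads.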

How the data were processed

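Stranded mRNA libraries were made from column-purified RNA of the sorted cells, per the labels' protocols. The submitters' processing notes name fastp, HISAT2, StringTie, GRCm38 and mm10. Their versions and settings and the annotation release were not given in the sources used here. For each library the authors deposited 1 FPKM value per gene, with no counts. The unit was read from the values: column totals differed (480854 to 485365 in IR, 451444 to 470375 in control libraries) while value times GENCODE M21 exonic length summed to between 1465015 and 1476166. Absolute depth is unknown. From genes below 0.1 FPKM, where most ratios between libraries matched a fraction of integers no larger than 6 (tolerance 0.001), depth relative to control replicate 1 was 81.6% to 92.6% in IR and 98.4% to 103% in the other control libraries.

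The test was that of limma 3.58.1 (R 4.3.3) on log2(FPKM + 1), for genes that averaged 1 FPKM or more over the 6 libraries (trend, two-sided, Benjamini-Hochberg over all tested genes, threshold 0.05). For the Cd3e scale each library was multiplied by the factor that sets Cd3e to its geometric mean, and the error of Cd3e enters every gene. Tables and plots used Python 3.11.15, pandas 2.3.3, numpy 2.4.6 and matplotlib 3.10.9. The fit was tested on simulated data of 10666 genes: 43.8% of genes given a log2 change of 0.5 and 85.4% of those given 1 were found, with 3.73% of calls false. On the Cd3e scale (10665 genes) these were 37.4% and 93.2%, with 7.38% of calls false, above the threshold of 5%. In the simulation Cd3e and most other genes were given no change, and noise was drawn separately for each gene. For the Cd3e scale all simulated IR values were lowered by a common factor, which the scaling undoes. These shares therefore do not cover data where Cd3e itself changes or where most genes are called. Nothing says that replicates are separate animals, and p-values cover the spread among these libraries alone, which may be technical. The members and lists were chosen with earlier results of these data known. Named genes were the 9 regulators, Cd3e, up to 4 genes with the lowest p per pathway list, and the 2 nearest genes per regulator; of the marker lists a few such genes are named and the rest given as counts and sums. Actn1, Ctnnb1, Id2, Foxo3, Bach1, Bcl2, S1pr4, Ccr7 and Prdm1 were chosen after their values were seen. 8 genes are in more than 1 list.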

Additional observations from a re-analysis of the deposited data

How the results depend on the processing

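As deposited, 1771 genes and 5 regulators were called (5 lower, 0 higher). Leaving out each library gave 1136 to 1662 genes and 3 to 4 regulators. The lowest gene count was without control replicate 2, which had 3 regulators called, as had the fit without control replicate 3 (Bach2, Id3 and Lef1 in both). With no filter 3 regulators were called, and with a mean of at least 5 FPKM 1 of the 5 then tested, Foxo1; fewer genes tested is part of that alternative. Relative to Cd3e, 8798 genes and 4 regulators were called, and leaving out each library gave 7944 to 8795 genes and 3 to 5 regulators. As deposited, the sign of each of the 9 was the same in every alternative run, and likewise relative to Cd3e. Tcf7 was also not called with median-of-ratios scaling (adjusted p = 0.0508) or quantile normalization (0.0588). With no filter Tcf7 (0.0769) and Foxo1 (0.0512) were the 2 not called as deposited, and Il7r (0.0521) was not called relative to Cd3e. Relative to Cd3e, array weights added S1pr1 (0.0375) and Id3 (0.0278), a fit with no trend added Lef1 (0.0464), and a mean of at least 5 FPKM added S1pr1 (0.0454). With a replicate block 1506 genes and 4 regulators were called as deposited, without Tcf7 (adjusted p = 0.0658), and 8832 genes and 4 regulators relative to Cd3e. Leaving out each library moved some uncalled changes by over 1.5 times: as deposited Klf2 ran from 0.01 to 0.13, and relative to Cd3e Tcf7 ran from 0.06 to 0.22 and Foxo1 from 0.04 to 0.16. Same-numbered libraries did not deviate together (r = 0.01, -0.04 and -0.02), so the numbers were not taken as pairs. Values near the floor, as for Bach2, rest on few reads in libraries of unknown depth.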
